A study of Mus musculus with 3 samples.

Results

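The 34 genes described here are noncoding genes of the mouse whose transcripts matched many reads of piRNA length. They were chosen from the 55450 genes of the GENCODE M21 annotation on testis values: at least 1000 testis reads of 26 to 31 nt that matched a transcript of the gene in full and in sense, at least 90% of which matched no other gene. Of 29536 genes of the noncoding and pseudogene types considered, 297 had that many testis reads and 46 also met the share of unique reads. From these 46, 12 genes were left out by name. The testis level of the 34 genes is therefore a description, as is every ratio that contains it. Just inside the read minimum were Gm6567 with 1040 testis reads and C230062I16Rik with 1177, and just outside it Gm18514 with 945. Just inside the unique share were 4933404O12Rik at 93.0% and Gm31181 at 94.6%, and just outside it Gm13815 at 88.8%.

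The RNA came from CD1 mice, an outbred stock: from mature sperm, from the testis and from the uterus of adults. The sperm were taken from the cauda epididymis, where sperm are stored, and kept on ice in a detergent buffer that lyses somatic cells. No treatment of the tissues and no genotype other than the strain is named, and the number of animals per library is not stated. With 1 library per source, differences between sources could not be checked in replicates and were not tested.

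Depth was 15690722 sperm reads, 23783785 testis reads and 15876066 uterus reads, of which 42.3%, 88.5% and 4% were 26 to 31 nt long. Levels are given in reads per 1000000 library reads (RPM). A count of 0, taken as at most 3 reads, allows 0.191 RPM in sperm, 0.126 in testis and 0.189 in uterus. Intervals in parentheses are 95% intervals of the counting error alone, and copies made by PCR count as separate reads in them. The germ cell microRNA miR-34c had 1104 RPM in sperm, against 3522 in testis and 335 in uterus. miR-202, also listed as a germ cell marker, had 0.191, 111 and 0. The epithelial microRNA miR-200c had 2204 RPM in sperm against 0.126 in testis and 65.9 in uterus. The leukocyte microRNA miR-142 had 22.4, 1.01 and 128 RPM in the same order. All 3 epithelial markers found were higher in sperm than in testis, at 34.7 to 2204 RPM against 0 to 0.168. The part of such RNA in the levels below was not tested.

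Piwi-interacting RNAs (piRNAs) are small RNAs of germ cells that are bound by PIWI proteins and silence transposons and other transcripts. In the mouse testis most of them arise at the pachytene stage of meiosis from long noncoding transcripts whose transcription depends on A-MYB, and they are cut from these precursors one after the other. MILI (Piwil2) binds the shorter piRNAs and MIWI (Piwil1) the longer ones. A piRNA made by this route usually starts with U, while one made by the ping-pong cycle, in which a piRNA guides the cut of a complementary transcript, often carries A at base 10 and overlaps its partner by 10 bases.

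The annotation lists 18 of them as long intergenic noncoding RNAs and 7 as transcripts that still await experimental evidence (TEC). Another 3 are antisense to another gene, 2 are processed transcripts, 1 starts from a bidirectional promoter, and 3 are pseudogenes made from a messenger RNA, of which 1 is transcribed as such. For each gene the transcript with the most testis reads was taken. These transcripts ran from 337 nt in Gm11657 to 8757 nt in Gm30132, with a median of 1656 nt, and 12 of them had a single exon.

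The leading testis sequences of the genes with the most reads show what these transcripts gave rise to. Each is written 5′ to 3′ as deposited, with T for U, with base 1 in capitals and base 10 in capitals where it is A.
D130017N08Rik: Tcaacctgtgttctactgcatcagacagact
Gm30132: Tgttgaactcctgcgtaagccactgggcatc
Gm10505: Tgagtctcttgaagaaatgctggcat
Gm2762: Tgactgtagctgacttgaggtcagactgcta
Gm14244: TccgatcctAgcatagtacttaagaggctt
Gm10010: TaccaattgAgctatatcccaacctccatt
1700042G15Rik: Taagaatgtggttgactgggcttgcatcc
1700009C05Rik: Tgatacatggttagtgtgaatttctagga
All 8 start with U, and they are 26 to 31 nt long. On GRCm38 the sequence of 1700009C05Rik lies in the last of 6 exons at chr6:81900676-81900704 on the minus strand, and it had 5308 reads in testis and 31 in sperm. That of 1700042G15Rik lies in the last of 3 exons at chr4:57361321-57361349 on the minus strand, with 3819 and 41 reads. That of D130017N08Rik lies in exon 2 of 2 at chr5:143764409-143764439 on the plus strand, with 3682 and 23 reads. The Gm2762 sequence, at chr13:53402629-53402659 on the plus strand, had 1853 reads in testis and none in sperm. None of the 8 had a read in uterus.

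Testis levels spanned 43.7 to 1417 RPM with a median of 302, and a few genes held most of the reads. Together the 34 genes had 332940 testis reads of 26 to 31 nt, or 1.58% of all testis reads of that length, spread over 24590 distinct sequences. The 5 highest genes held 40.7% of the reads counted per gene and the 12 highest 68.3%. D130017N08Rik, a long intergenic noncoding RNA on chromosome 5, had 1417 RPM in testis (1402 to 1432), 166 in sperm (160 to 172) and 0.441 in uterus. Gm30132, on chromosome 8, followed with 1357 RPM in testis, 120 in sperm and 0 in uterus. Gm10505, on chromosome 17, had 1117, 86.0 and 0 RPM. The intervals of these 3 testis levels do not overlap, and testis was the highest and uterus the lowest library in each.

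Gm2762 had 1013 RPM in testis and 164 in sperm, so that its sperm level lay within the interval of that of D130017N08Rik. Gm14244, annotated as antisense, had 791 and 69.1 RPM. Gm10010 and 1700042G15Rik were close in testis, at 737 RPM (726 to 748) and 729 (718 to 740), and in sperm, at 55.5 (51.9 to 59.3) and 59.9 (56.1 to 63.9), and neither pair differed beyond its counting error. When both strands were counted, only 35.2% of the testis reads of Gm10010 matched no other gene. The rest of the 12 highest genes were 1700009C05Rik with 579 RPM in testis and 77.8 in sperm, Gm41109 with 524 and 57.7, Cep83os with 474 and 46.0, Gm21221 with 434 and 36.3, and 1700008K24Rik with 390 and 40.5. None of the 9 genes from Gm2762 to 1700008K24Rik in that order had a uterus read. The lowest testis levels were those of Gm10683 with 58.7 RPM and 7.58 in sperm, AC140207.3 with 58.2 and 4.91, C230062I16Rik with 49.5 and 9.88, and Gm6567 with 43.7 and 4.46.

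**Figure D1:**
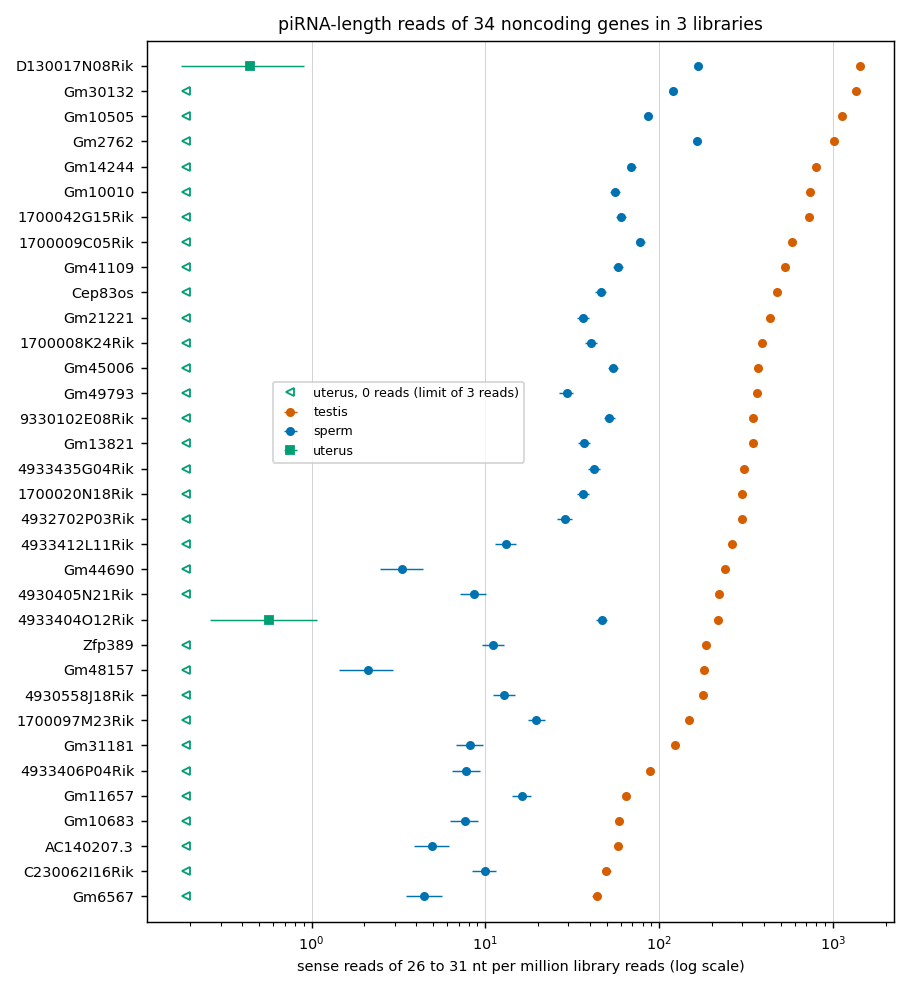
Sense reads of 26 to 31 nt per 1000000 library reads (log axis) for each of the 34 genes, ordered by testis level, with 95% counting intervals; open triangles mark 0 reads in uterus at the limit of 3 reads. Every testis point lies to the right of the sperm point of the same gene, and only D130017N08Rik and 4933404O12Rik have a uterus point.

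Per length of transcript the order was another one. The short 1700042G15Rik, with 583 nt, had 1250 testis RPM per kilobase, the highest of the 34, and Gm49793, with 423 nt, had 862. Gm30132 had 155 and Cep83os, at 6566 nt, 72.2. Gm6567 was lowest at 20.9, and the median was 186. These values divide all testis reads of a gene by the length of its transcript with the most testis reads. In Gm10505 that transcript held only 51.6% of the testis reads of the gene.

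The first comparison sets sperm beside testis, the 2 sources of the male germ line. Reads of the 34 genes were about 10 times less frequent in sperm, and the genes held nearly the same order in both. Pooled, the sperm level was 1432 RPM and the testis level 13999, a ratio of 0.102 (0.101 to 0.104). The ratios of single genes ran from 0.0116 to 0.252 with a median of 0.0963, and 27 of the 34 lay between 0.05 and 0.15. At least 4-fold lower in sperm were 33 of the 34 genes, beside 45.2% of all 3590 genes with 100 or more reads in the higher of both libraries and 82.6% of the 489 such genes with 90% or more unique reads. Because the testis level chose the genes, nothing is read from that count. The median ratio was 0.306 over all those genes and 0.119 over the ones with unique reads. Across the 34 genes the logarithms of the sperm and testis levels had a Pearson correlation of 0.83 and a Spearman correlation of 0.90, as a description over genes from the same libraries. The ratio itself did not follow the testis level, with a Spearman correlation of 0.01. Sperm and testis libraries differ in the size classes they hold, and on other scales the median moves up to a log2 ratio of -1.28, as given in the closing section. Fewer cells of a kind and less RNA per cell cannot be told apart in such samples.

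Highest in sperm relative to testis was Gm11657, antisense to the protein kinase gene Prkca, with 253 sperm reads (16.1 RPM) and 1522 testis reads (64.0 RPM), a ratio of 0.252 (0.220 to 0.288). It was the only one of the 34 genes under 4-fold. Per read of 26 to 31 nt that matches any gene in sense its direction turned, with a log2 ratio of 0.11. Next came 4933404O12Rik with 46.7 RPM in sperm, 218 in testis and a ratio of 0.214 (0.197 to 0.231), and C230062I16Rik with 9.88 and 49.5, a ratio of 0.200 (0.168 to 0.236). The intervals of these 3 ratios overlap between neighbours. All testis reads of C230062I16Rik also matched another gene when both strands were counted. Gm2762 followed at 0.162 (0.155 to 0.169), and 9330102E08Rik, with 51.6 RPM in sperm and 345 in testis, at 0.150 (0.139 to 0.161).

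At the other end, 2 processed pseudogenes had the fewest sperm reads relative to testis. Gm48157 had 4295 testis reads (181 RPM) and 33 sperm reads (2.10 RPM), and was 85.9-fold lower in sperm (61 to 125). Gm44690 had 5691 testis reads (239 RPM) and 52 sperm reads (3.31 RPM), and was 72.2-fold lower (55 to 96.8). Their intervals overlap each other and no other gene's. The TEC gene 4930405N21Rik had 219 RPM in testis and 8.54 in sperm and was 25.7-fold lower (21.6 to 30.7). Its neighbour in the order, 4933412L11Rik, had 261 and 13.1 RPM and was 19.9-fold lower (17.3 to 23). The transcribed pseudogene Zfp389 had 186 and 11.1 RPM and was 16.7-fold lower (14.4 to 19.6). The 3 pseudogenes of the set were thus all among its 5 lowest ratios. The 24 genes between these ends ran from 0.0667 in Gm31181 to 0.147 in Gm45006.

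**Figure D2:**
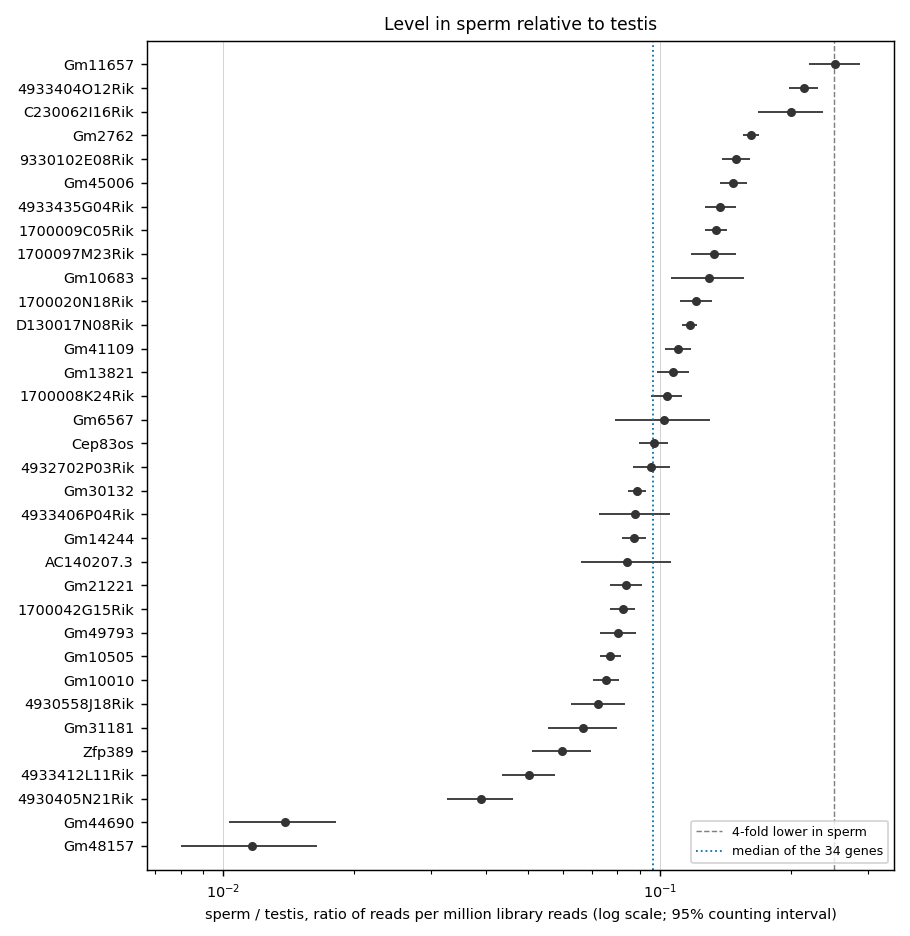
Ratio of the sperm to the testis level of each gene (log axis) with its 95% counting interval; the dashed line marks 4-fold and the dotted line the median of 0.0963. Gm44690 and Gm48157 stand apart at the bottom, and Gm11657 is the highest at 0.252.

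The leading testis sequences of the genes at both ends of that order are shown because they differ in their first base and in the sperm reads they kept. They are written as above.
Gm11657: Taggacggaggttgttgcctaaaattggga
4933404O12Rik: Tgagctaaggcaatgagaagctgtgacgca
C230062I16Rik: Tacgtggagcgaggctcaaagaacagcggt
4930405N21Rik: Taagttaaccaatgaactaacgtcgtg
Gm44690: TaaactttgAccgagcatattgaacacatt
Gm48157: GagcaggacAatatgagaatcaatgctgaa
The Gm48157 sequence, in exon 2 of 2 at chr14:19646866-19646895 on the minus strand, starts with G and had 2482 reads in testis and 0 in sperm. The Gm44690 sequence, in its single exon at chr7:69883989-69884018 on the minus strand, had 2468 and 15 reads and also led in sperm. That of C230062I16Rik, in exon 4 of 4 at chr7:29965167-29965196 on the plus strand, had 334 and 27 reads and likewise led both libraries. That of 4933404O12Rik, in exon 4 of 4 at chr5:136935799-136935828 on the plus strand, had 440 testis reads and 1 sperm read although the gene had the second highest ratio.

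The ratio depended little on read length within the window. Over the 34 genes it was between 0.0913 and 0.119 at each length from 26 to 31 nt. Outside the window it was 0.297 at 24 nt (0.271 to 0.325), 0.171 at 25 nt and 0.0802 at 32 nt (0.0746 to 0.0861).

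The comparisons with uterus ask whether these reads occur in a tissue without male germ cells. Only 15 uterus reads of 26 to 31 nt matched the 34 genes in sense (0.945 RPM), and 32 genes had none. D130017N08Rik had 7 reads (0.441 RPM) and 4933404O12Rik had 9 (0.567 RPM). A read that matched both genes is counted in each of them and only once among the 15. Of the 15 reads, 20.0% started with U (4.33 to 48.1%) and 13.3% were 29 to 31 nt long (1.66 to 40.5%), against 89.4% and 75.9% in testis. These few reads thus differ in both measures from those of testis. All uterus reads of 26 to 31 nt had 21.8% and 10.5%, so the 15 reads are like their library in both.

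The sperm level relative to uterus lay outside the rule. In sperm all 34 genes were 4-fold or more above uterus, as were all 30 that had 100 or more reads in the higher library, beside 93.7% of 2266 genes of all kinds and 88.7% of the 133 with 90% or more unique reads. A share near the background is no result about these genes. On other scales fewer of the 34 were 4-fold above uterus: 28 per read of 26 to 31 nt, 30 with DESeq2 size factors, and 32 with TMM factors or over distinct sequences. Where uterus had no read, the ratio is a lower bound against 3 uterus reads. Gm2762 was at least 867-fold higher in sperm and Gm30132 at least 637-fold, while Gm48157, with the fewest sperm reads, was at least 11.1-fold higher. D130017N08Rik was 376-fold and 4933404O12Rik 82.3-fold higher. In testis all 34 genes were at least 4-fold higher than in uterus, beside 91.9% of 2832 genes and 96.3% of the 455 with 90% or more unique reads, and the bounds ran from 231-fold in Gm6567 to 7182-fold in Gm30132. The testis level chose these genes, so this too is a description.

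Within a gene, sperm and testis reads often started at different places. Reads were sorted by the position of their 5′ end, and for each gene the fewest start sites that held 50% of its testis reads were taken. By the choice of sites that share is at least 50% in testis. The same sites held a median of 25.8% of the gene's sperm reads, from 0 in Gm48157 to 65.2% in Gm45006, and under 25% in 15 of the 34 genes. Taken the other way, the sites that held 50% of the sperm reads had a median of 26.7% of the testis reads. The leading start site was the same in both libraries in 9 of 34 genes, and the leading sequence in 7. Since each site was chosen on the counts of the library in which it leads, a lower share in the other library is partly built in, and the size of that part was not tested.

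The 11 testis sites chosen as above in Gm2762 held 33.7% of its sperm reads, above the median of 25.8% over the genes. The leading sites of Gm2762 still differed between the libraries. Its leading testis site had 2200 testis reads and 2 sperm reads, and its next one 1696 and 2. In sperm the leading sites were others, with 768 testis and 691 sperm reads at the first and 165 testis and 636 sperm reads at the next. These 2 sites together held 51.6% of the sperm reads of the gene and 3.87% of its testis reads. 1700009C05Rik had 6055 testis and 38 sperm reads at its leading testis site, and 1195 and 705 at its leading sperm site, which alone held 57.7% of its sperm reads. Gm21221 had 3772 and 8 reads at the first and 332 and 298 at the second, or 36.5% of testis and 52.3% of sperm reads. In Gm13821 the leading sperm site had 231 of its 578 sperm reads and 34 of 8165 testis reads. These counts are far from the 10-fold ratio of the genes as a whole, in both directions.

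The leading sperm sequences of these genes are given for comparison with those of testis.
Gm2762: Taggatgtagacggttctggtttttgctg
1700009C05Rik: Ttatctctgtgatctaactgatgccgtggc
Gm21221: Ttggaagtcgtgagtttggatgtgggga
Gm13821: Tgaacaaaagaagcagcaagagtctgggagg
All 4 start with U. In sperm they had 406, 698, 235 and 173 reads, and in testis 309, 1031, 254 and 15. They lie at chr13:53400792-53400820 on the plus strand and, on the minus strand, at chr6:81900592-81900621, chr5:149803834-149803861 and chr5:114841517-114841547.

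Other genes kept their leading site. Gm45006, a TEC gene, had 3919 testis and 362 sperm reads at its leading site, or 44.7% and 42.4% of its reads, and its next site followed in both libraries. Gm49793 had 4406 and 226 reads at its leading site, or 50.8% and 49.2%. Cep83os had 3460 and 214, or 30.7% and 29.7%. Only that site of Cep83os was kept, as its next testis sites had 719 and 671 testis reads against 2 and 0 sperm reads. In 9330102E08Rik and 4933435G04Rik the leading site was shared but took more of the sperm reads, with 47.0% against 16.1% and 47.3% against 10.9%.

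**Figure D3:**
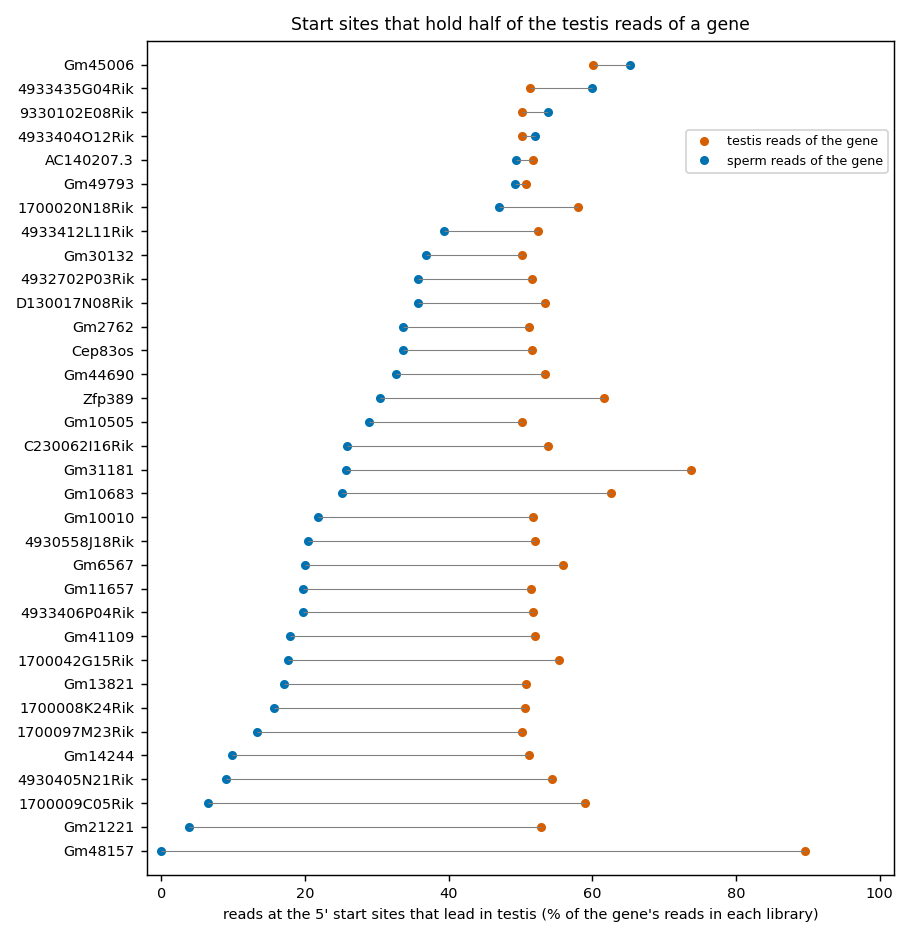
For each gene, the fewest 5′ start sites that hold 50% of its testis reads, with the share of the gene's testis reads and of its sperm reads that start there. The testis share is fixed at 50% or more by the choice of sites; the sperm share runs from 0 in Gm48157 to 65.2% in Gm45006.

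Sequences seen in sperm were mostly also seen in testis. The share of a gene's sperm reads whose exact sequence occurred in testis had a median of 90.7% over the genes, from 61.4% in Gm6567 to 98.0% in 1700009C05Rik. Of the distinct testis sequences of a gene, a median of 13.7% occurred in sperm. Testis had more reads, which raises the first share and lowers the second.

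The first base of the reads was U in most genes. Over all 34, 89.4% of testis reads (89.3 to 89.5%) and 89.5% of sperm reads (89.1 to 89.9%) started with U. All testis reads of 26 to 31 nt had 91.8% and all uterus reads 21.8%. All sperm reads of that length had 57.7%, so that in sperm the 34 genes stood above the library they were taken from. This was not particular to them. In sperm 11 of the genes left out by name had 91.2%, and 43 protein-coding genes under the same read rule had 92.6%. Among the 34 genes, the share in testis was over 90% in 24 and over 80% in 31. It was highest in 4932702P03Rik at 98.3%, followed by 1700009C05Rik at 98.2%. Sperm lay above the testis interval in 13 genes and below it in 6. The largest difference among the 12 highest genes was in D130017N08Rik, from 84.4% in testis (84.0 to 84.8%) to 65.9% in sperm (64.0 to 67.7%). A single start site with A as its first base and A at base 10 held 766 of the 2604 sperm reads of D130017N08Rik, or 29.4%, and 2449 or 7.27% of its testis reads. Its sperm lead, shown for this base, was
D130017N08Rik, sperm: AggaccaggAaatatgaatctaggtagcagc
This sequence, at chr5:143758437-143758467 on the plus strand, had 748 reads in sperm and 2060 in testis.

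The 5 genes with the lowest U share in testis were Gm48157 at 8.89% (8.06 to 9.79%), Zfp389 at 33.9% (32.5 to 35.3%), C230062I16Rik at 72.1% (69.5 to 74.7%), 4933406P04Rik at 80.1% (78.3 to 81.8%) and D130017N08Rik at 84.4%. Only the first 2 were under 50%, and both are pseudogenes. In sperm, Gm48157 had U first in 93.9% of its 33 reads (79.8 to 99.3%) and Zfp389 in 58.0% of its 174 reads (50.3 to 65.5%). Without both genes the pooled U share was 91.2% in testis and 89.8% in sperm.

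Base 10 was A in 30.4% of the testis reads (30.2 to 30.5%) and 29.5% of the sperm reads (28.9 to 30.1%), against 34.4% of all testis reads and 10.04% of all sperm reads of that length. The genes thus lay below the whole library in testis and above it in sperm. Genes ranged from 7.17% in Gm10683 to 97.2% in Gm48157, with Gm31181 at 80.6%, Gm44690 at 63.3% and Zfp389 at 53.8%. A high share came from 1 sequence in several of these. The leading sequence of Gm31181, a long intergenic noncoding RNA on chromosome 10, was 68.6% of its testis reads, that of Gm48157 57.8% and that of Gm44690 43.4%, and all 3 carry A at base 10.

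Reads that did not start with U had A at base 10 more often. In testis it was 54.1% of 35435 such reads (53.6 to 54.6%) against 27.6% of the 297505 reads with U first (27.4 to 27.7%). In sperm it was 65.1% (63.1 to 67.0%) against 25.3% (24.7 to 25.9%). The start site of D130017N08Rik with A at base 1 and base 10 alone held 766 of the 2354 sperm reads not starting with U. The share over reads rests on a few genes: of the 31 genes with 100 or more such testis reads, 12 had A at base 10 in over 50% of them, and the median gene had 39.1%.

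**Figure D4:**
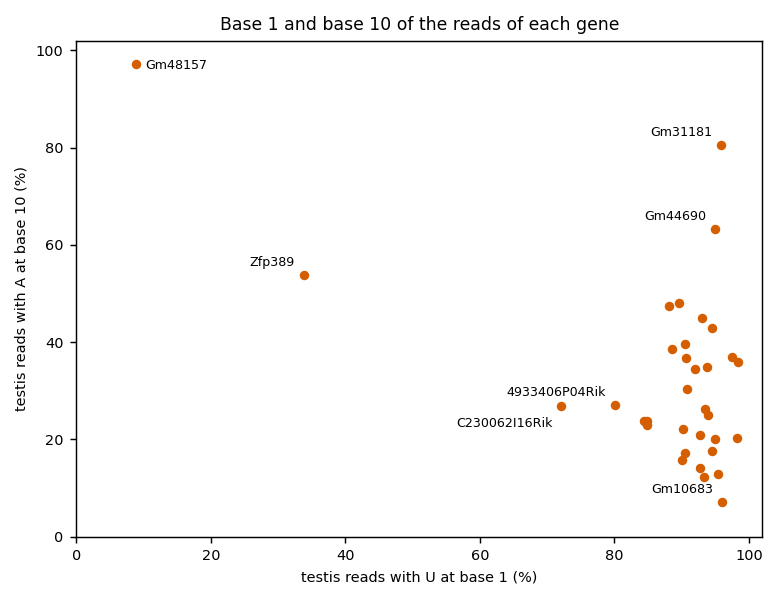
Share of testis reads with U at base 1 against the share with A at base 10, 1 point per gene. Most genes lie at over 80% U and under 50% A, while Gm48157 (8.89% and 97.2%) and Zfp389 (33.9% and 53.8%) stand apart on the left.

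The main start sites of these 2 pseudogenes were examined for reads on the other strand that could pair with them, a choice made after their values were seen. In Gm48157 a single site had 3851 testis reads, or 89.7% of the gene, and 0 of its 33 sperm reads, which allows a share of up to 9.09%. No read paired with it at any overlap of 1 to 30 bases with up to 4 mismatches, and no read of either male library matched the gene in antisense. The transcript aligned to the processed pseudogene Gm49143 at 81.1% identity over 344 nt.

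In Zfp389, a pseudogene that aligned to the zinc finger gene Zfp113 at 69.1% identity over 538 nt, the leading site started with A and had 1013 testis and 33 sperm reads. Reads that could pair with it with up to 4 mismatches numbered 225 in testis and 42 in sperm at an overlap of 10 bases. All of the 225 testis reads started with U. Base 10 of the site is A and lies opposite that first base, so the match itself largely sets it to U and nothing is read from it. At the other overlaps the testis reads numbered 44 at 12 bases, 31 at 14, 11 at 11, 8 at 15, 3 at 8 and none elsewhere. The most frequent partner matched another of the 34 genes in sense, 4933404O12Rik on chromosome 5. Both sequences are shown with the 10 overlapping bases in capitals.
Zfp389: AGAATTCACActggagaaaaacgcta
4933404O12Rik: TGTGAATTCTctgacgttgaatgagttt
The first lies at chr13:21504962-21504987 on the minus strand and had 331 testis reads and no sperm read. The second lies at chr5:136936860-136936887 on the plus strand and had 177 testis and 12 sperm reads, and it differs at 4 bases from the reverse complement of the Zfp389 transcript. The start site of the second was the third highest of 4933404O12Rik in both libraries, with 334 testis and 59 sperm reads. Whether the transcripts pair in the cell was not tested.

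The lengths of the reads peaked at 30 nt in both male libraries. Reads of 29 to 31 nt made up 75.9% of the testis reads of 26 to 31 nt (75.7 to 76.0%) and 74.9% of the sperm reads (74.4 to 75.5%), beside 81.3% and 84.6% of all such reads of these libraries. In testis 32 of 34 genes had over 50%. The exceptions were Gm10505 with 46.9% and Gm49793 with 28.6%, which are neighbours on chromosome 17. Gm10505 was spread over all lengths of the window with most testis reads at 26 nt. Gm49793 peaked at 28 nt, with 4417 of its testis and 282 of its sperm reads. Its leading sequence, 28 nt long, was 44.8% of the testis reads of the gene and led in sperm as well.
Gm49793: Tagagactgcaaaaaggccaggagctgc
It lies in exon 1 of 3 at chr17:27318652-27318679 on the minus strand, from base 18 of the transcript.

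Between libraries the length share was higher in sperm than the testis interval in 8 genes and lower in 11. Gm21221 differed most, with 84.7% in testis and 34.4% in sperm. Its testis reads peaked at 30 nt with 4217 reads, and its sperm reads at 28 nt with 267, which is the length of the sperm lead shown above. Gm10010 had 84.9% and 68.2%, and 4930558J18Rik 90% and 69.7%. The share was higher in sperm in Gm10505, at 56.7% against 46.9%, and in 4933435G04Rik, at 78.0% against 63.8%.

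**Figure D5:**
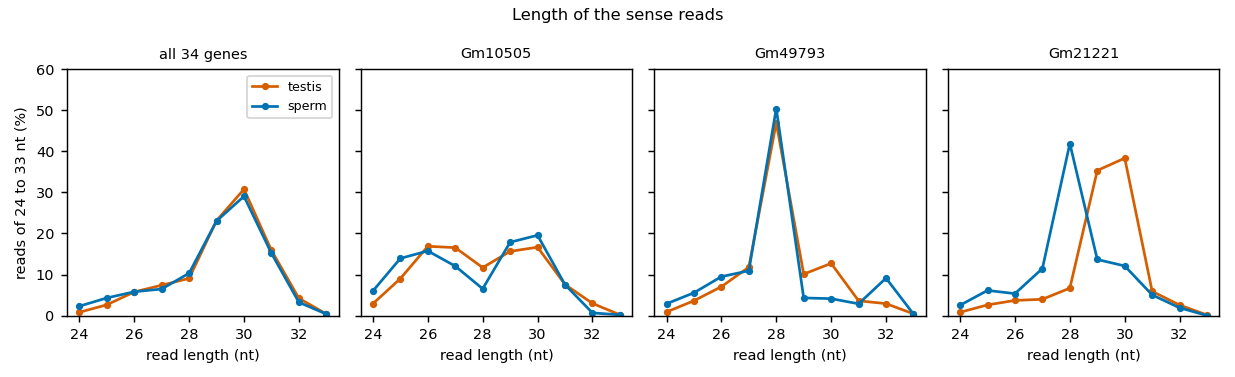
Length of the sense reads of 24 to 33 nt, in percent of these reads, in testis and sperm, for all 34 genes and for Gm10505, Gm49793 and Gm21221. The pooled reads peak at 30 nt in both libraries, Gm49793 peaks at 28 nt in both, and Gm21221 peaks at 30 nt in testis and 28 nt in sperm.

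In most of the genes reads covered most of the transcript but were concentrated at few places. Testis reads covered a median of 88.4% of the bases of the transcript with the most testis reads, from 39.5% in C230062I16Rik to 99.8% in 1700020N18Rik. The leading sequence held a median of 12.8% of the testis reads of a gene and over 25% in 9 genes. Gm10505 was the most even by this measure at 3.58%. Of 10 equal segments of the transcript, the one with most reads held a median of 38.5% of the testis reads, and 90.6% in Gm48157. The 5′ part was not favoured throughout: the first 5 segments held over 50% of the testis reads in 19 of 34 genes. Cep83os had 97% there and Gm44690 6.69%.

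Antisense reads of 26 to 31 nt were few in most of the genes. In testis 15 of the genes had none and 28 had at most 10. C230062I16Rik had 1557 in testis, 317 in sperm and 7 in uterus, and all the testis reads also matched another gene in sense. It overlaps the coding gene Zfp74 on the opposite strand by 469 bp and the processed pseudogene Gm10169 by 348 bp. Gm10505 had 416 antisense reads in testis and 77 in sperm, and 7.69% of the former matched another gene in sense. D130017N08Rik had 65 in testis, of which 67.7% matched another gene in sense, and 135 in sperm. Here sperm had more reads on the antisense strand than testis. This was not particular to D130017N08Rik: 4933404O12Rik had 46 in testis and 103 in sperm, 4932702P03Rik 4 and 68, and Gm2762 13 and 35. A read from a gene and one from its antisense partner are told apart here only by the sequence as deposited, which assumes that the reads keep their strand.

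Several of the genes lie close to each other or to the genes left out by name. On chromosome 17 Gm10505 (27325035 to 27344833, plus strand) and Gm49793 (27308316 to 27318696, minus strand) point away from each other with their starts 6339 bp apart, and Gm49794, one of the genes left out, lies 9277 bp from Gm10505 on the same strand. On chromosome 6 Gm10010 (128187818 to 128200623) and 9330102E08Rik (128169704 to 128183803) lie 4014 bp apart, both on the minus strand, and 1700009C05Rik (81900464 to 81910800) and 1700097M23Rik (81893818 to 81895339) lie 5124 bp apart on that strand. On chromosome 7 Gm45006 (73797603 to 73798292) lies within the span of Gm10619, also left out, on the same strand. Neighbours did not have one ratio in common: it was 0.0754 (0.0703 to 0.0807) in Gm10010 and 0.150 in 9330102E08Rik, but 0.134 (0.127 to 0.142) in 1700009C05Rik and 0.133 (0.118 to 0.149) in 1700097M23Rik, and 0.0770 (0.0728 to 0.0813) in Gm10505 and 0.0803 (0.0729 to 0.0882) in Gm49793. The last 2 pairs did not differ beyond counting error. Gm49793 had 364 RPM in testis and 29.3 in sperm, Gm45006 369 and 54.4, and 1700097M23Rik 148 and 19.6, all with 0 in uterus.

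A start shared with a coding gene was found in 4 of 34 genes (11.8%), where a protein-coding gene started within 2 kb on the opposite strand, beside 7.22% of all 29536 genes of the types considered. Cep83os and Cep83 start 78 bp apart, 4930558J18Rik and 1700066M21Rik 76 bp and 4933406P04Rik and Bclaf1 175 bp, all head to head, and C230062I16Rik and Zfp74 overlap at their starts. The promoter table of RefSeq, which gives 250 bases before and 50 after a start, held 18 of the 34 genes. The letters AACTGCC, a form of the site that MYB factors bind, occurred on either strand in 2 of the 18 (11.1%), 1700008K24Rik and 1700020N18Rik, beside 4 of 7 of the left-out genes in that table (57.1%), 5 of 34 coding genes chosen by the same read rule (14.7%) and 1287 of 27025 genes overall (4.76%). A match is a description of the letters in this window and no evidence of binding.

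Proteins of the piRNA pathway have messenger RNAs that may themselves give reads of this length, and 20 such genes were counted in the same way. Only Piwil2, which encodes MILI, had 1000 or more testis reads, with 3104 in testis, 110 in sperm and 0 in uterus, and the median of the list was 24.5 testis reads. Piwil1, which encodes MIWI, had 138 and 37 reads in the male libraries. Tdrd1, which encodes a tudor protein that binds PIWI proteins, had 154 and 26, and Mybl1, which encodes A-MYB, 12 and 0. All of them except Piwil2 were thus below the 1040 testis reads of Gm6567, the lowest of the 34 genes, whose choice required 1000.

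The 34 genes were last set beside 2 groups that pass the same read rule: 11 of the genes left out by name (without Gm42418, which is known to overlap ribosomal RNA sequence) and 43 protein-coding genes. The groups were not chosen alike. The 34 genes are those that remained after the named genes were taken out, while no coding gene was left out by name. The pooled ratio of sperm to testis was 0.102 in the 34 genes, 0.113 (0.112 to 0.114) in the 11 and 0.0845 (0.0833 to 0.0857) in the 43, and the median ratio 0.0963, 0.106 and 0.0941. The U share was 89.4%, 93.4% and 94.1% in testis and 89.5%, 91.2% and 92.6% in sperm. The share of 29 to 31 nt in testis was 75.9%, 77.2% and 81.6%. The 34 genes were lowest in each of these shares, and with Zfp389 and Gm48157 left out the testis U share of 91.2% was still below the other groups. Base 10 was A in 30.4%, 28.8% and 32.7% of the testis reads and in 29.5%, 40.3% and 32.2% of the sperm reads. These differences are larger than the counting error of the pooled reads, but the spread between genes within each group is wide and there is 1 library per source, so they are not called differences between the groups.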

How the data were processed

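Small RNA from sperm, testis and uterus was ligated to adapters, amplified by PCR and sequenced, per the labels' protocols. The deposited values are whole-number counts of reads per distinct sequence, not normalized. The submitters' processing notes name mm9; no source used here gives the trimming, the size selection or the tools. A line without sequence, 1 each in the sperm and testis tables, was left out.

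Reads of 26 to 31 nt were matched in full and in sense to GENCODE M21 transcripts, so coordinates are GRCm38 and were not converted. No genome was used, so matches outside annotated transcripts were not seen. Counts were divided by library totals. RPM have exact Poisson, shares exact Clopper-Pearson and ratios conditional exact binomial 95% intervals. Genes were counted as apart at 4-fold. Of 1800 simulated exact reads 100% were placed and of 200 altered ones 0%.

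The genes, lists and named genes were chosen with earlier results of these data known. Named were the 12 genes with most testis reads, the 5 highest and 5 lowest sperm ratios, those with uterus reads, the 5 lowest U shares, the 3 with most antisense reads and neighbours within 10 kb. Others were named for their values. Sequences shown are leads of the 8 highest genes and the 3 at each end of the ratio, with a few more chosen after their values were seen. Promoter sequences are RefSeq's, and of the listed microRNA markers 9 were matched by name. Scaling factors came from edgeR 4.0.16 and DESeq2 1.42.0 in R 4.3.3, and all else from Python 3.11.15 with scipy 1.17.1, pandas 2.3.3, numpy 2.4.6, matplotlib 3.10.9 and numba 0.67.0. Alternatives were other scalings, distinct sequences, no single-read sequences, other length windows, unique reads, other folds and other limits of the rule; leaving out leading sequences and uniqueness on either strand were added after the data were seen.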

Additional observations from a re-analysis of the deposited data

How the results depend on the processing

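All 34 genes were lower in sperm than in testis under each scale and read choice tried except 1, but the size of the difference moved with the scale. Per read of 26 to 31 nt that matches any gene in sense, 33 were lower and Gm11657 was higher in sperm, with a log2 ratio of 0.11 in place of -1.99. The count at least 4-fold lower, 33 in the report, was 4 per read of 26 to 31 nt that matches any gene in sense and 2 over distinct sequences, and 23 to 34 otherwise. The median log2 ratio of sperm to testis, -3.38 in the report, was -2.31 per read of 26 to 31 nt, -1.28 per such read that matches a gene, -2.59 with TMM factors of edgeR, -2.94 with DESeq2 size factors, -1.37 over distinct sequences, -3.63 without single-read sequences and -3.21 without each gene's leading testis sequence. Another denominator shifts every gene alike, by 1.07, 2.10, 0.78 and 0.44 on the log2 scale for the first 4 of these. Over distinct sequences each sequence counts once whatever its number of reads. The median log2 ratio of sperm to uterus, 7.43 in the report, was 4.03 per read of 26 to 31 nt, 5.09 with TMM, 4.71 with DESeq2 factors and 3.71 over distinct sequences.

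Over distinct sequences and without single-read sequences, the U share was 84.9% and 90.7% in sperm and 72.9% and 90.3% in testis, and the share of 29 to 31 nt was 62.9% and 76.8% in sperm and 58.6% and 76.7% in testis. The share with A at base 10 in testis was 30.8% over distinct sequences. The rule held 75 genes at a minimum of 100 reads and 29 to 38 under the other limits and windows. No paired analysis was possible because each source had 1 library, and no library could be left out. Depth limits the lowest genes in sperm, such as Gm48157 with 33 reads.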

Other observations

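The last base of the reads differed between the male libraries. Reads of the 34 genes ended in C in 39.1% of sperm and 29.4% of testis reads, in G in 23.8% and 15.4%, in U in 17.7% and 28.6% and in A in 19.3% and 26.6%. Among all reads of 26 to 31 nt that start with U, 57.7% of sperm and 24.3% of testis reads ended in C, and 9.82% and 37.8% in U, so the shift in the 34 genes has the same direction as that of the whole libraries. Its cause was not tested.

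In several genes 1 sequence or site had more reads in sperm than in testis although the gene as a whole had far fewer. At the leading sperm site of Gm31181 sperm had 35 reads and testis 2, at that of C230062I16Rik 48 and 11, and at that of Gm14244 261 and 125. The leading sperm sequence of 1700097M23Rik had 146 reads in sperm and 34 in testis, and that of 4933406P04Rik 18 and 0. These sites were chosen for their sperm counts, and no replicate is at hand to show whether they recur.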
